A study of Mus musculus with 3 samples.

Results

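The small leucine-rich proteoglycans are secreted proteins of the extracellular matrix, built from leucine-rich repeats and often carrying glycosaminoglycan chains. Their genes were chosen by name: every non-control probe of the array whose gene name was Bgn, Dcn, Lum, Fmod, Ogn, Aspn, Prelp or Omd. This gave 8 genes with 11 probes, of 19757 named genes with 41174 probes in all. Bgn, Dcn and Prelp had 2 probes each and the other members 1.

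Decorin, biglycan, lumican and fibromodulin bind collagen fibrils and help set their diameter and spacing. Decorin and biglycan carry chondroitin or dermatan sulfate chains, whereas lumican, fibromodulin and osteoadherin can carry keratan sulfate. Several members also bind growth factors of the TGF-beta family or cell surface receptors. In the artery wall they are made mainly by smooth muscle cells and fibroblasts, and biglycan is also known from endothelial cells.

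The study compared cultured primary cells from FVB/N mice that lack Pim1, a serine/threonine kinase, with cells from wild-type FVB/N mice. The labels called both mouse aortic endothelial cells (MAEC) and described both sets of donors as female and 12 weeks old. The cells grew on gelatine-coated dishes, and RNA was prepared 24 hours after seeding. It was hybridised to 3 two-colour oligonucleotide arrays, each with knockout RNA in Cy5 and wild-type RNA in Cy3. Every ratio below is knockout over wild type. The labels called the arrays biological replicates but leave unsaid if the wild-type RNA was a pool or came from separate cultures, and they did not describe the deleted allele. Dyes were not swapped, so a dye effect and the genotype cannot be told apart. The p-values below cover no spread beyond that among the 3 arrays, and so few arrays limit the precision.

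The targeted gene was read first. The Pim1 probe (chr17:29220807-29220866, mm8) had log2 ratios of -0.97, -1.16 and -0.99 on arrays 1, 2 and 3, with a mean of -1.04 ± 0.10 (SD) and a limma adjusted p of 0.0030. Both channels were well above background on every array, and the labels do not say whether the probe lies in the deleted part. Between 53.9% and 62.6% of probes lay well above background, by array and channel. Array 1 stood apart from the others: over 25078 tested probes its ratios correlated with those of arrays 2 and 3 at 0.68 and 0.70, and those 2 arrays correlated with each other at 0.91. Sex-linked genes went against the shared label. The Y-linked Eif2s3y, Ddx3y and Kdm5d lay well above background in the knockout on 3 of 3 arrays and in the wild type on 0, whereas Xist did so in the wild type on 3 and in the knockout on 0. Sex and Pim1 genotype therefore cannot be told apart here.

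The cells were checked against markers before any member was read. Of 14 endothelial markers on the array, 6 could be tested, and Pecam1, Cdh5, Tie1 and Erg, which define the type, lay above background on no array in either channel. Of the 14, 4 lay above background on every knockout array and 5 on every wild-type array. Flt1 did so on 3 knockout and 3 wild-type arrays, Nos3 on 3 and 2, Esam on 2 and 3, and Kdr on 0 and 3. Eng and Egfl7 passed the test as higher in the knockout, by 2.51 ± 0.24 and 1.42 ± 0.23 on the log2 scale. Summed levels here and below are the log2 of the added intensities of a list's tested genes, so bright genes weigh most. For the 6 tested endothelial markers this level lay between 12.94 and 13.38 in the knockout and between 11.85 and 12.11 in the wild type. Markers of fibroblasts were well represented. Of 14 such markers, none of them a member, 12 were detected above background on each array in both genotypes. The summed level of the 12 tested fibroblast markers was 19.16 to 19.23 in the knockout and 19.02 to 19.11 in the wild type. Fap and Tcf21 were never above background. Some endothelial markers were thus detected while Pecam1, Cdh5, Tie1 and Erg were not, so the cells are called by their labels only.

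The members are shown first through the probe sequences of Dcn and Bgn, 2 probes in which a reading frame could be marked. They show what the arrays could bind. Each is 60 bases long, sense strand, 5′ to 3′, as given in the array files. In Dcn the capitals mark the stop codon at bases 55 to 57, which follows 18 codons. The probe lies at chr10:96947287-96947346 (mm8).

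Dcn probe: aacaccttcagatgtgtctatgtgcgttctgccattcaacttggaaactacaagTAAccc

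In Bgn the capitals mark 3 leucine codons. They lie in the only forward frame without a stop codon, which runs from base 2 to base 58 and holds 19 codons. The probe lies at chrX:69745935-69745994 (mm8).

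Bgn probe: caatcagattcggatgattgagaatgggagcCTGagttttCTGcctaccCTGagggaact

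Of the 8 members, 7 had a probe that could be tested, and 3 passed as higher in the Pim1 knockout: Dcn, Lum and Fmod. None passed as lower, and at an unadjusted limma p under 0.05 the counts were 5 higher, with Prelp and Bgn added, and 0 lower, beside 36% of all genes in either direction. Over the whole array, 20.1% of 13461 tested genes passed, 8.68% as higher and 11.4% as lower. The 3 called members each exceeded a 2-fold change. Of all tested genes, 6.69% were both called and changed at least 2-fold, 2.26% upwards. The median log2 ratio was 0.85 over the 7 tested members and -0.02 over all tested genes. A call is a Benjamini-Hochberg adjusted p under 0.05 from limma, adjusted over all tested probes. The count of called members was 3 without array 2, when 4.99% of genes passed, 0 without array 3, when 4.72% passed (3 at an unadjusted p under 0.05), and 6 without array 1, when 41.6% passed. In RNA from a whole culture, fewer cells of a type and less RNA per cell cannot be told apart.

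**Figure D1:**
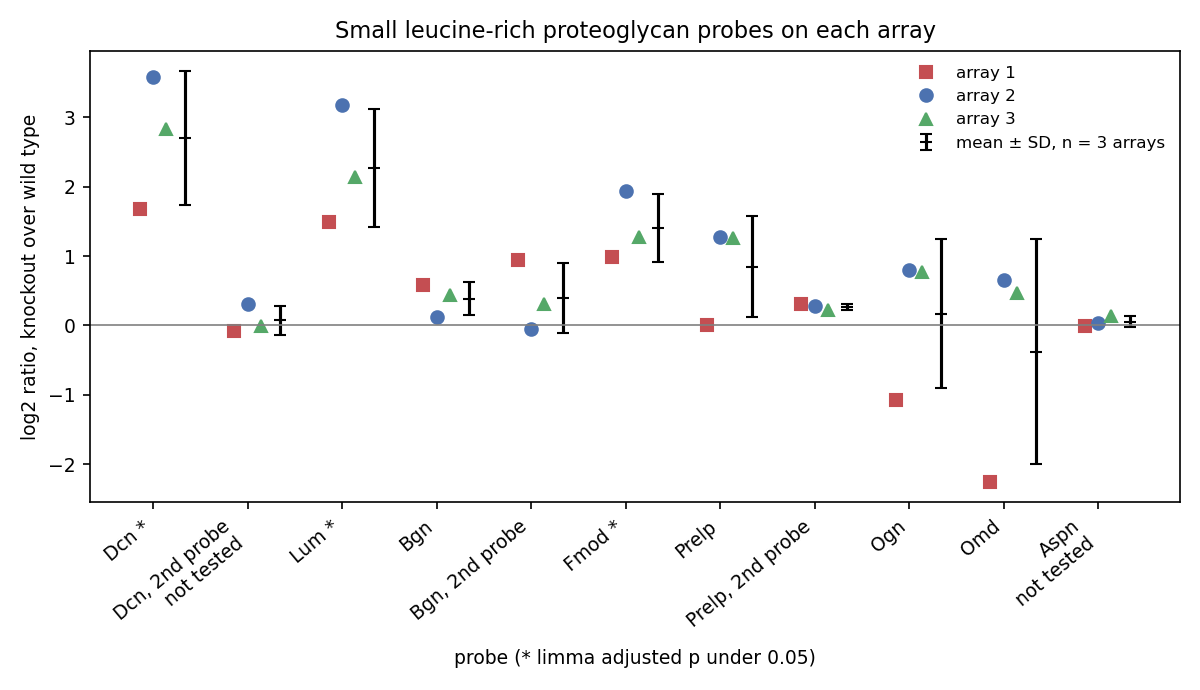
Log2 ratio of knockout over wild type (y axis) for each of the 11 member probes (x axis) on arrays 1, 2 and 3, with the mean and SD in black. The tested probes of Dcn, Lum and Fmod lie above 0 on every array, and on array 1 the brighter Prelp probe lies at 0.01 and Ogn and Omd lie below 0.

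Decorin, which wraps onto collagen fibrils and can sequester TGF-beta, was higher in the knockout on each array. The log2 ratios of Dcn were 1.68, 3.59 and 2.84 on arrays 1, 2 and 3. Its normalised log2 level was 12.41, 12.89 and 12.44 in the knockout and 10.73, 9.30 and 9.60 in the wild type. Each knockout value lay above each wild-type value, and the wild-type level was highest on array 1. The share of all genes whose levels separate in this way was not counted, here or for Lum and Fmod below. The mean log2 ratio was 2.70 ± 0.96 (SD, n = 3; 95% interval 1.83 to 3.57), a 6.51-fold difference, with a limma adjusted p of 0.0079. Without array 3 the mean was 2.63 and the adjusted p 0.075. A further Dcn probe, at chr10:96910401-96910460 and designed to a cDNA clone, lay above background on no array in either channel and was not tested.

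Lumican, which lies on collagen fibrils and is known from the cornea and artery, also rose. The log2 ratios of Lum were 1.50, 3.18 and 2.15. Its normalised level was 8.30, 9.25 and 8.84 in the knockout and 6.80, 6.07 and 6.69 in the wild type. The knockout values all lay above the wild-type values, and again array 1 had the smallest ratio. In the wild type the probe was well above background on array 1 only, so the denominators on arrays 2 and 3 are near background. The mean log2 ratio was 2.27 ± 0.85 (SD, n = 3; 95% interval 1.50 to 3.05), with a limma adjusted p of 0.0095. The size depends on how near-background values are handled: the scanner software's own ratios had log2 values of 2.52, 6.51 and 5.53, with a mean of 4.85, the normexp offset of 0 gave 3.40 and no background subtraction 2.91. In these settings Lum exceeded Dcn, which stood at 2.81, 2.77 and 2.75. Under a filter asking for detection of both genotypes on each array, Lum was not tested. Without array 3 its adjusted p was 0.075. The probe lies at chr10:97002264-97002323, 54977 bases from that of Dcn.

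Fibromodulin, which binds collagen during fibril assembly and is abundant in tendon, was the third called member. The log2 ratios of Fmod were 0.99, 1.94 and 1.27. Its normalised level was 9.23, 9.15 and 8.78 in the knockout and 8.24, 7.20 and 7.51 in the wild type. The genotypes did not overlap, and array 1 held the highest wild-type value. The mean log2 ratio was 1.40 ± 0.49 (SD, n = 3; 95% interval 0.92 to 1.89), a 2.64-fold difference with a limma adjusted p of 0.0097. Its size also depended on the processing. The software's ratios gave 1.95, above that interval, an offset of 0 gave 1.69 and no background subtraction 1.56. Tested against a log2 ratio of 0.5 in place of 0, its adjusted p was 0.058, and without array 3 it was 0.075. The probe lies at chr1:135863832-135863891.

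**Figure D2:**
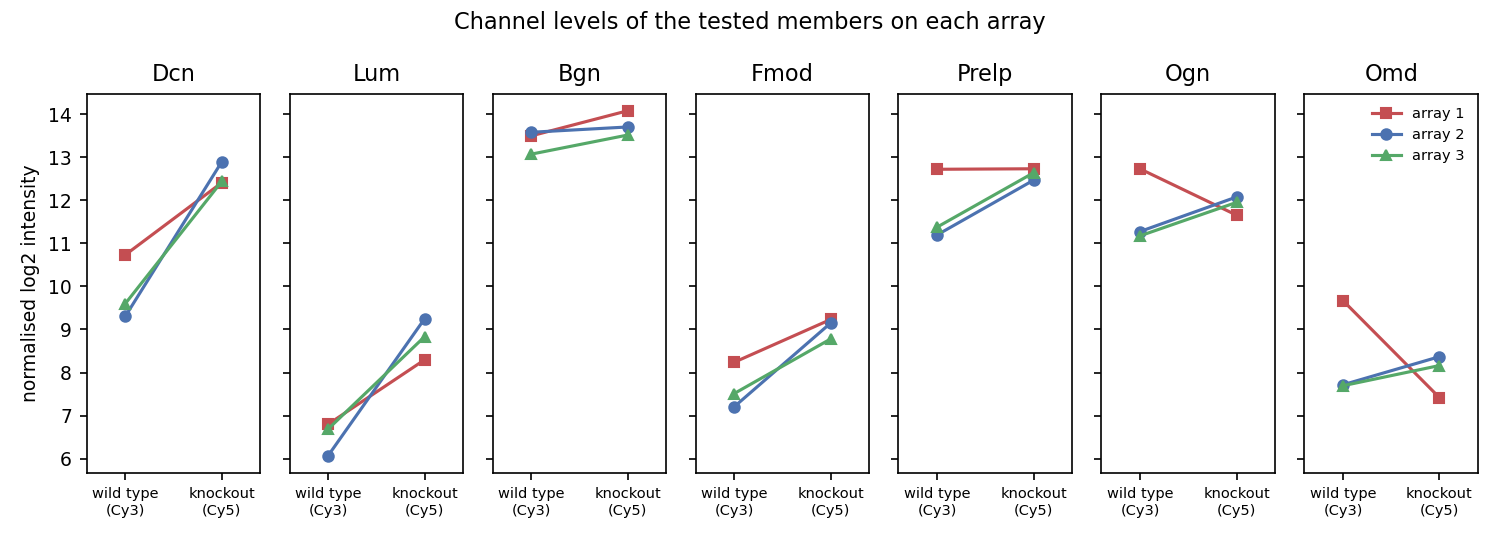
Normalised log2 intensity (y axis) of the 7 tested members in the wild-type and knockout channel (x axis), with a line joining the channels of each array. Dcn, Lum and Fmod rise from wild type to knockout on every array, and array 1 has the highest wild-type point for each member except Bgn.

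Prolargin, which anchors basement membranes to the connective tissue beneath, did not pass the test. The brighter Prelp probe (chr1:135726768-135726827) had log2 ratios of 0.01, 1.27 and 1.26. Its level was 12.73, 12.47 and 12.64 in the knockout and 12.72, 11.20 and 11.38 in the wild type. The knockout values spanned 0.27 and the wild-type values 1.52, with array 1 high in the wild type, so the genotypes overlapped. The mean was 0.85 ± 0.72 (SD, n = 3; 95% interval 0.18 to 1.52; limma adjusted p = 0.091). It passed under median centring (1.03, adjusted p = 0.043), with array weights (1.12, adjusted p = 0.0045) and without array 1 (1.27, adjusted p = 2.4e-10), and averaging both probes gave 0.56. The fit without array 1 rested on 2 arrays, and 41.6% of all genes passed in it. With array weights 32.8% of all genes passed and with median centring 13.9%, beside 20.1% in the main fit. The dimmer Prelp probe, at chr1:135731455-135731514, had closely spaced ratios of 0.30, 0.28 and 0.22 and a mean of 0.27 ± 0.04 (adjusted p = 0.10). With the software's ratios that probe had a mean of 0.78 and an adjusted p of 0.019, and without background subtraction 0.39 and 0.0498.

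Biglycan, a close relative of decorin that also acts as a ligand of Toll-like receptors, did not pass on either probe. The brighter Bgn probe had log2 ratios of 0.58, 0.12 and 0.44. Its level was 14.08, 13.70 and 13.51 in the knockout and 13.49, 13.58 and 13.07 in the wild type. The genotypes overlapped, although the ratio was above 0 on each array. The mean was 0.38 ± 0.24 (SD, n = 3; 95% interval 0.08 to 0.69; limma adjusted p = 0.092). The further probe (chrX:69744406-69744465) had ratios of 0.95, -0.06 and 0.31, with a mean of 0.40 ± 0.51 (adjusted p = 0.24). The mean of that probe was 0.13 without array 1, 0.63 without array 2 and 0.68 with the software's ratios, and that of the brighter probe was 0.63 under median centring, none of which passed. Bgn is X-linked, and the labelled sex and the sex-linked genes disagree as given above. The part of sex in its value was not tested.

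Osteoglycin, also called mimecan, and osteoadherin lie side by side on chromosome 13 and had mixed signs. The log2 ratios of Ogn were -1.07, 0.80 and 0.78. Its level was 11.66, 12.08 and 11.95 in the knockout and 12.73, 11.27 and 11.17 in the wild type. Array 1 differed from the others mainly in the wild-type channel. The mean was 0.17 ± 1.08 (SD, n = 3; 95% interval -0.80 to 1.14; limma adjusted p = 0.82). Without array 1 the mean was 0.79 (adjusted p = 1.9e-06), and without array 2 or 3 it was -0.15 or -0.14. Each of these fits rested on 2 arrays, and 41.6% of all genes passed in that without array 1.

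Omd had the widest spread of any member. Its log2 ratios were -2.25, 0.65 and 0.47. Its level was 7.42, 8.37 and 8.16 in the knockout and 9.67, 7.72 and 7.69 in the wild type. Array 1 was the lowest in the knockout and the highest in the wild type. The mean was -0.38 ± 1.63 (SD, n = 3; 95% interval -1.82 to 1.07; limma adjusted p = 0.71), which turned to 0.56 without array 1 (adjusted p = 0.00026). With array weights it was 0.23 (adjusted p = 0.69). As for Ogn, the fit without array 1 rested on 2 arrays, and 41.6% of all genes passed in it. The probes lie at chr13:49636117-49636176 for Ogn and chr13:49604415-49604474 for Omd.

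Asporin, a relative of decorin that binds collagen and calcium, was not measured above background. The Aspn probe (chr13:49579047-49579106) lay above background on 0 of 3 arrays in each channel, so it was not tested and its level has only an upper bound. Its neighbours Omd and Ogn, of which the Omd probe starts 25368 bases from that of Aspn and the Ogn probe a further 31702 bases away, were above background on every array in both channels.

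How array 1 differed was described after its values had been seen, so it carries no test. In 6 of the 7 tested members the ratio on array 1 lay below the mean of arrays 2 and 3, as it did in 55.2% of tested genes. The median of this difference was -1.25 over the members and -0.05 over all genes. It was -2.81 for Omd, -1.86 for Ogn, -1.54 for Dcn, -1.25 for Prelp, -1.17 for Lum and -0.61 for Fmod, and 0.30 for Bgn. For Dcn, Fmod, Prelp, Ogn and Omd the larger part lay in the wild-type channel, and for Lum and Bgn in the knockout channel. Channel levels had been normalised between arrays by Aquantile, and the split between channels depends on that step. On the brightest probes, the wild-type level on array 1 exceeded the mean of arrays 2 and 3 in 7 of 7 members. The excess was 1.97 for Omd, 1.51 for Ogn, 1.43 for Prelp, 1.28 for Dcn, 0.88 for Fmod, 0.42 for Lum and 0.17 for Bgn. Over all genes the median of the same wild-type differences was 0.004, and their middle 90% ran from -0.49 to 0.64. In the knockout channel the members' differences ran from -0.85 to 0.47, and 3 of 7 were above 0, beside a median of -0.05 over all genes. The dimmer probes differed from this. That of Prelp had ratios of 0.30, 0.28 and 0.22 and wild-type levels of 6.94, 6.59 and 6.69. That of Bgn had ratios of 0.95, -0.06 and 0.31 and wild-type levels of 7.53, 7.77 and 7.50. Ogn and Omd had opposite signs on array 1 and on the other arrays, as 23.6% of 13449 genes did.

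Promoters are shown for Ogn and Omd, the neighbours whose ratios turned sign together on array 1, and for Fmod, the called member with an entry. RefSeq promoter sequence (GRCm38.p6) was matched by symbol for 6 members: Bgn, Fmod, Ogn, Aspn, Prelp and Omd. Each run below holds the 250 bases before the start, sense strand, 5′ to 3′, and capitals mark matches to TATAAA on either strand.

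Ogn promoter, chr13:49607765-49608014: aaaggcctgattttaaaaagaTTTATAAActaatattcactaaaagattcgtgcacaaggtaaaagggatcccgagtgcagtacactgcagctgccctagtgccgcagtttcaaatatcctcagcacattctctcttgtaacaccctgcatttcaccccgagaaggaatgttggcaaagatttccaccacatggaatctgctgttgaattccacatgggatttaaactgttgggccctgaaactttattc

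Omd promoter, chr13:49582212-49582461: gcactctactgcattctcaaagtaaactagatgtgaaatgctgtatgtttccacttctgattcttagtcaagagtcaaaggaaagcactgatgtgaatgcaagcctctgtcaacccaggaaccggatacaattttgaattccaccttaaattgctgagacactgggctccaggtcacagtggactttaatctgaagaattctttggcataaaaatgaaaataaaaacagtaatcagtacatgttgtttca

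Fmod promoter, chr1:134037004-134037253: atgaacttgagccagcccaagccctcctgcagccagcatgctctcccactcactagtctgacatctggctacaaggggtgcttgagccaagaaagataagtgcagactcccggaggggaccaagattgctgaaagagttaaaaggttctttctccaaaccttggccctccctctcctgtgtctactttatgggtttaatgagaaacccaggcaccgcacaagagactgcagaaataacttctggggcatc

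Each of 4 motifs was searched on both strands. TATAAA, the letters of the TATA box, was matched in Ogn and Aspn, 2 of 6 members, and in 12.4% of all 32851 promoters of this length. In Ogn the sense match began 227 bases before the start and overlapped a match on the opposite strand. In Aspn the sense match began 207 bases before the start and the opposite-strand match 178. Whether any of these matches acts as a TATA box was not tested. CCAAT, the CCAAT box, was found in Aspn and Prelp and in 33.8% of all promoters. TGANTCA, the AP-1 motif, was in 0 of 6 members and 6.75% of all promoters, and CACGTG, the E-box that MYC binds, was in 0 of 6 and 6.02%. The GC content was 64.4% in Bgn, 55.6% in Prelp, 51.2% in Fmod, 42% in Ogn, 38.4% in Omd and 30% in Aspn, beside a median of 52.4% over all promoters. These are descriptions of letters in the window.

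The members lie in groups on the chromosomes, and the genes around them were read from the same fit. Within 500 kb of a member probe 41 further genes were tested, and 3 passed as higher and 4 as lower, or 17.1%, beside 20.1% of all genes. Chil1, a secreted chitinase-like protein gene 142450 bases from Fmod, was higher by 1.38 ± 0.24 (limma adjusted p = 0.0025). Btg2, which lies 28096 bases from Fmod, had a ratio of -0.06. On the same chromosome Klhl12 was higher by 0.59 and Rabif had a ratio of -0.51. Only 1 gene could be tested around Dcn and Lum, and it was not called. Around Aspn, Omd and Ogn, Fgd3, a guanine nucleotide exchange factor, was higher by 0.88 (1.74 with the software's ratios). Near Bgn, Zfp185, Xlr4b and Xlr3c were called lower. Zfp185 had a log2 ratio of -1.30, of -2.02 with the software's ratios and of -0.77 over the mean of its probes. Xlr4b was well above background on 2 knockout arrays, with a ratio of -4.63 that was -6.49 with the software's ratios. Xlr3c was so on 0 knockout arrays, and no exact ratio is given. Xlr4b and Xlr3c belong to a family of near-identical X-linked copies, so their identity on the array is uncertain. Of these 7 calls, Klhl12, Rabif and Fgd3 were lost without array 2 and without array 3.

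**Figure D3:**
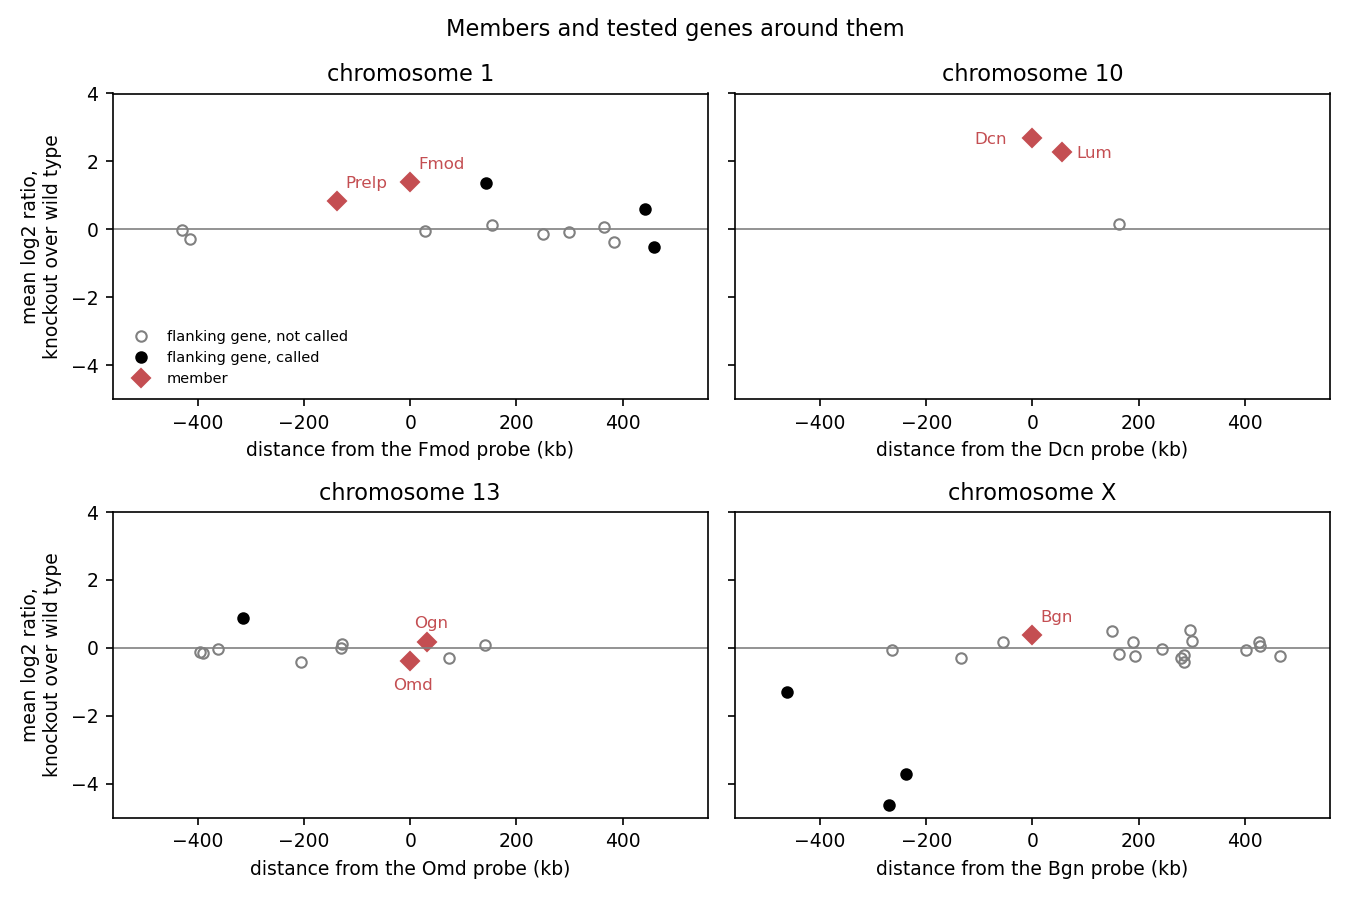
Mean log2 ratio of knockout over wild type (y axis) against distance from a member's probe in kb (x axis) on chromosomes 1, 10, 13 and X, for members and for tested genes within 500 kb. Filled circles passed the test, and most genes close to the members, such as Btg2 at -0.06, lie near 0. The point of Xlr3c on chromosome X rests on a knockout signal not well above background.

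Other genes of the wider small leucine-rich repeat family were not called. Of 10 on the array, 7 were tested and 0 passed by limma, beside 20.1% of all genes. At an unadjusted limma p under 0.05 there were 2 (Podn and Chadl), beside 36% of all genes. The median log2 ratio was 0.11 and the range -0.30 to 0.34. Podn, podocan, stood at 0.34 (adjusted p = 0.11), Chadl at -0.30 (0.11), Epyc at 0.16, Tsku at 0.15, Podnl1 at 0.11, Nyx at -0.06 and Chad at 0.00. Epyc lay above background on no wild-type array and Nyx on no knockout array, and the normexp offset pulls such dim ratios towards 0. Under the alternatives that kept all 3 arrays, Podn ran from 0.34 to 1.76 and Epyc from 0.14 to 1.52. Chadl ran from -0.71 to -0.24 and Nyx from -0.53 to -0.05. Kera and Ecm2 were never above background and Optc was not tested. Ecm2 and Kera are neighbours of the chromosome 13 and chromosome 10 members. Chadl passed as lower with the software's ratios and without background subtraction, Podn passed as higher with array weights or an intensity trend, and Podn and Epyc passed without array 1. Of all genes, 32.8% passed with array weights, 21.3% with the trend and 41.6% without array 1.

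Enzymes that build the members' sugar chains moved in both directions. Of 20 tested enzymes of chondroitin and dermatan sulfate synthesis, 4 were called higher and 3 lower, with a median of -0.08. Over all tested genes the shares were 8.68% higher and 11.4% lower. Chst7, an X-linked chondroitin 6-sulfotransferase, fell by 4.14 ± 0.59 on the log2 scale (limma adjusted p = 0.00057). Csgalnact1, which starts the chondroitin chain, fell by 1.27 ± 0.22. Chst11, a chondroitin 4-sulfotransferase, rose by 1.22 ± 0.14, and by 0.76 over the mean of its probes. The linkage enzymes B3galt6 and B4galt7 rose by 0.76 ± 0.38 and 0.61 ± 0.09, and Chst12 rose by 0.47 ± 0.13. Chst7, Csgalnact1 and Chst11 passed without each array in turn, whereas the other 4 calls were lost without array 2 and without array 3. Dse, the epimerase that makes dermatan sulfate, stood at 0.38 ± 0.19 and was not called. Of 6 tested keratan sulfate enzymes, Chst1, a keratan sulfate sulfotransferase, fell by 2.60 ± 0.10 (adjusted p = 0.00030). B4galt1, a galactosyltransferase, rose by 1.20 ± 0.26 (adjusted p = 0.0042), and its call was lost without array 2 or 3. The median of the 6 was 0.13.

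Collagens and their assembly partners, which the members bind, also split. Of 17 tested, 7 were called higher and 5 lower, beside 8.68% and 11.4% of all genes, with a median of 0.13. Col3a1, the chain of type III collagen, had log2 ratios of 1.58, 3.74 and 3.96, and rose by 3.09 ± 1.32 (limma adjusted p = 0.013). As for Dcn and Lum, its smallest ratio was on array 1. Col11a1, which nucleates fibrils, fell by 4.10 ± 0.10 on its brightest probe and by 2.43 over the mean of its probes. The crosslinking enzymes Loxl1 and Lox rose by 1.69 ± 0.17 and 1.41 ± 0.54, and periostin, Postn, rose by 1.37 ± 0.01. Tenascin-X, Tnxb, fell by 1.27 ± 0.31, and by 0.69 over the mean of its probes. With the software's ratios Postn stood at 2.59. Without array 2 or 3 the call of Col3a1 was lost, and without array 3 so were those of Lox and Tnxb. In all, 6 of the 12 calls held without array 2 and 4 without array 3.

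**Figure D4:**
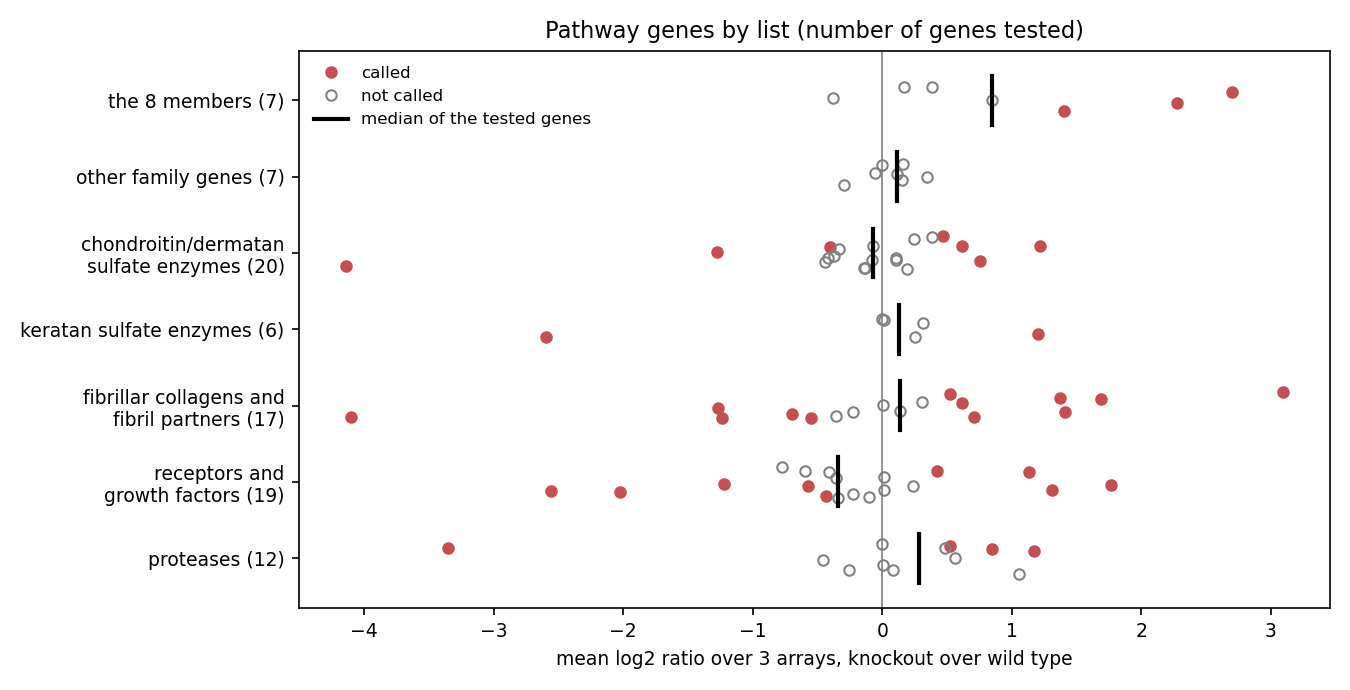
Mean log2 ratio of knockout over wild type over 3 arrays (x axis) for the tested genes of the family and of 6 related lists (y axis, number tested in brackets). Filled points were called and bars are list medians, which run from -0.34 for receptors and growth factors to 0.85 for the members.

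Of 19 tested receptors and growth factors that the members bind, 4 were called higher and 5 lower, with a median of -0.34. Over all genes 8.68% were called higher and 11.4% lower. The decorin ligands Tgfb2 and Tgfb3 fell by 2.56 ± 0.04 and 2.03 ± 0.52 (limma adjusted p = 0.00027 and 0.0035), and Tgfb1 stood at -0.34 (adjusted p = 0.070). Egfr and Igf1r, both known to bind decorin, moved in opposite directions, with ratios of 1.31 ± 0.20 and -1.22 ± 0.24 (-0.78 for Igf1r over the mean of its probes). P2rx7, a purinergic receptor for biglycan, rose by 1.76 ± 0.30, and Ccn4, a secreted matricellular protein, rose by 1.13 ± 0.51. The biglycan receptors Tlr2 and Tlr4 stood at -0.78 (adjusted p = 0.11) and 0.01 and were not called. Of the 9 calls, Ccn4, Bmp4, Itga2 and Lrp1 were lost without array 2 and without array 3.

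Of 12 tested proteases and their helpers, 3 were called higher and 1 lower, beside 8.68% and 11.4% of all genes, with a median of 0.28. Pcolce2, an enhancer of procollagen processing, fell by 3.35 ± 0.07 (limma adjusted p = 0.00020). Mmp13, a collagenase that can cleave fibromodulin, rose by 1.17 ± 0.59, the aggrecanase Adamts4 by 0.85 ± 0.20 (1.79 with the software's ratios), and Bmp1, which processes procollagen and probiglycan, by 0.52 ± 0.12. The last 3 calls were lost without array 2 and without array 3. Mmp3 had log2 ratios of -1.25, 2.20 and 2.22 and was not called, with the sign on array 1 opposite to the others, as for Ogn and Omd.

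Markers of other cell types that make these proteoglycans are given beside the members. Over all tested genes 8.68% were called higher and 11.4% lower. Among 12 tested fibroblast markers, 6 were called higher and 1 lower, led by Col3a1 as above, Has2 at 2.67 ± 0.85 and Pdgfra at 2.26 ± 0.90. The lower one was Col1a2 at -0.70 ± 0.15 (limma adjusted p = 0.012), whereas Col1a1 was higher by 0.62 ± 0.25. Col1a2 lost its call with median centring and Col1a1 with the software's ratios. Of those not called, Fbln2, Mfap5 and Pi16 had ratios below 0, and Thy1 and S100a4 above. Without array 2 or 3, Has2 and Dpt kept their calls and the other 5 of the 7 fibroblast calls were lost. Of 8 tested smooth muscle markers, Cnn1 was lower by 1.45 on the log2 scale and Lmod1 higher by 0.67. Myocd was also called lower. Without array 2 the calls of Cnn1 and Lmod1 were lost, and without array 3 those of Cnn1, Lmod1 and Myocd. Myocd and Myh11 lay above background on no knockout array, and Myh11 was not called. The summed level of the tested smooth muscle markers was 15.02 to 15.27 in the knockout and 15.07 to 15.70 in the wild type. Its lowest wild-type value was on array 1. Of 9 mesothelial markers, 0 were called higher by limma (1 at an unadjusted p under 0.05) and 7 lower, with Krt19 at -4.12 ± 0.48 and Msln at -3.41 ± 0.18, and Gpm6a above background on no knockout array. Of the 7 calls, 4 held without array 2 (Cdh1, Krt18 and Upk3b were lost) and 4 without array 3 (Krt18, Krt8 and Upk3b were lost). The summed mesothelial level was 12.74 to 12.83 in the knockout and 16.15 to 16.53 in the wild type, highest in the wild type on array 1. Of 10 tested markers of cartilage, bone and tendon, 1 was called higher and 5 lower, among them Acan at -2.79 ± 0.30, Mkx at 1.86 ± 0.24 and Matn3 at -1.29 ± 0.16. Without array 2 or 3, 3 of the 6 calls held, and Col2a1, Runx2 and Sox9 were lost. Their summed level was 12.56 to 13.16 in the knockout and 13.72 to 13.83 in the wild type, and Matn1, Ibsp and Tnmd were never above background. Of 3 tested adipocyte markers Fabp4 fell by 3.42 ± 0.51, Pparg fell by 2.00 ± 0.22 and Lpl rose by 2.73 ± 0.31, and Adipoq, Plin1 and Cidec were never above background. Their summed level was 10.70 to 10.92 in the knockout and 12.54 to 13.06 in the wild type. Of 3 tested macrophage markers, Lyz2 fell by 1.78 ± 0.51. Their summed level was 8.77 to 8.89 in the knockout and 9.24 to 10.12 in the wild type, and Adgre1 and Itgam were never above background. The part of these cell types in the levels of Dcn, Lum and Fmod was not tested.

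The genes most like each called member over the 3 arrays were found by the root mean square difference of log2 ratios, as a description over 3 points from the same hybridisations. For Dcn they were 5031410I06Rik (0.181), the matrix Gla protein gene Mgp (0.303) and Steap4 (0.330). For Lum they were Adamts15 (0.256), Casp4 (0.257) and the lubricin gene Prg4 (0.327). For Fmod they were Dusp22 (0.0925), Fggy (0.0955) and Camsap3 (0.147).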

How the data were processed

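Total RNA of Pim1 knockout and wild-type cells was measured on 3 two-colour arrays. Per the file headers, the deposited files hold pixel intensity and local background for 45018 spots per array (mm8), written by Agilent Feature Extraction 9.5.3.1, a version also in the submitters' processing notes. The deposited value table holds a log10 ratio identical to the software's, with a median of 0 on each array. The arrays share 1 slide and 1 scan date.

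Mean intensities were corrected by normexp (offset 50, which pulls dim ratios towards 0) and normalised by loess within each array, with 1639 control spots and outlier-flagged spots (121 to 140 an array) at weight 0. The tested ratios come from these values. Knockout and wild-type levels, their sums over lists and their differences on array 1 had a further Aquantile normalisation between arrays. No spot was saturated. Testing asked that a probe be well above background in 1 channel on 2 or more arrays. The mean ratio was compared with 0 by limma 3.58.1 (R 4.3.3; Benjamini-Hochberg, 0.05) over 25078 probes. The fit was run on simulated data with independent noise on each array, so that run does not cover the departure of array 1 from the others. The brightest tested sense probe stood for its gene. Intervals are 95% from the moderated variance.

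Gene names came from RefSeq tables (GRCm38.p6, names only): 24375 probes matched by accession, 115 by another accession, 6234 by symbol and 2391 by synonym, and 8059 had none. The 253 probes against their gene's strand were left out.

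Members, lists and tests were chosen with earlier results of these data known. Named were all members and family genes, up to 6 called genes per pathway list and 3 per marker list by size, all called flanking genes, and the 3 genes most like each called member. Btg2, Dse, Tgfb1, Tlr2, Tlr4 and Mmp3 were added after their values were seen, as were the sex-linked genes. So were the fibroblast markers Col1a1, Col1a2, Fbln2, Mfap5, Pi16, Thy1 and S100a4. Alternatives were other background corrections, median intensities, the software's ratio, the deposited table, median centring, scale or Aquantile normalisation, no filter or a both-channel filter, kept flags, trended robust variances, array weights, stricter tests, averaged probes, and leaving out each replicate.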

Additional observations from a re-analysis of the deposited data

How the results depend on the processing

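Directions of the 3 called members held under every alternative run that gave a value. Leaving out each replicate gave log2 ratios of 2.26 to 3.21 for Dcn, 1.82 to 2.66 for Lum and 1.13 to 1.61 for Fmod (limma adjusted p up to 0.075, without array 3), 0.64 to 1.27 for Prelp, 0.28 to 0.51 for Bgn (0.13 to 0.63 on its dimmer probe), -0.15 to 0.79 for Ogn and -0.89 to 0.56 for Omd. It gave 0 to 6 members called higher, 0 to 4 changed at least 2-fold, 179 to 2805 genes called higher and 456 to 2797 lower. By list it gave 0 to 2 calls among other family genes, 3 to 13 chondroitin and dermatan sulfate enzymes, 1 to 2 keratan sulfate enzymes, 4 to 13 collagens and partners, 5 to 15 receptors and growth factors and 1 to 7 proteases. Array weights gave 0.23 for Omd, 1.12 for Prelp, 2132 genes called higher, 11 chondroitin and dermatan sulfate enzymes, 7 proteases and 1 other family gene. Other family genes also numbered 1 without background subtraction, with the software's ratio, with the deposited table and with trended variances. An adjusted p under 0.01 left 323 genes higher, 637 lower, 3 chondroitin and dermatan sulfate enzymes, 5 collagens, 5 receptors and 2 proteases. A test against a log2 ratio of 0.5 left 215 higher, 457 lower, 3, 6, 5 and 1 in the same lists, and Fmod at 1.40 (limma adjusted p = 0.058). Median centring gave 1.03 for Prelp and 829 genes lower, and turned the share of calls that were higher from 43.1% to 55.6%. That share was 33.6% at an adjusted p under 0.01 and 32% against 0.5. The dimmer Prelp probe passed at 0.78 with the software's ratio and the deposited table and at 0.39 without background subtraction. Chad turned to -0.0046 with an offset of 0, -0.020 with median intensities, -0.0094 with median centring, -0.0010 with scaling and -0.031 without array 2 (0.020 without array 1). Over 74 other named genes and their alternatives, 1173 of 1322 values kept direction and side of the threshold, 137 lost it, 7 gained it and 5, all of Chad, turned sign. Calls were also lost for B3galt6, Mmp13, Fgd3 and Itga2 with no filter, for Chst12, Bmp1, Rabif and Lrp1 with the software's ratio, for Chst12, Rabif, Itga2 and Bmp4 with median centring, for Chst12 and Lrp1 with an offset of 0 and for Lrp1 with trended variances or the filter on both channels. Among the mesothelial and the cartilage, bone and tendon markers, Krt18 lost its call with no filter. Col2a1, Runx2 and Upk3b lost theirs with the software's ratio and with median centring. Median centring also lost Sox9, and averaged probes lost Runx2. With the software's ratio Mkx, Matn3, Lpl, Lyz2 and Lmod1 moved to 3.22, -2.35, 4.33, -2.89 and 1.13. No member probe was below background on all arrays in 1 genotype and detected in the other, so no bound on a fold was computed and its alternative gave no value. With each array assumed to vary like the others, leaving out 1 leaves 2. No paired analysis was possible because each array already holds both genotypes as a ratio and there is 1 group. Signal over background limits Lum in the wild type and Aspn in both genotypes.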

Other observations

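The genes most like the members that were not called were read after their values had been seen, over the same 3 arrays. For Omd, whose ratio was -2.25 on array 1 and above 0 on the others, they were Selenbp2 (root mean square difference 0.0791), Selenbp1 (0.139) and Col14a1 (0.165). Col14a1, which encodes a fibril-associated collagen, had log2 ratios of -2.02, 0.49 and 0.47. Selenbp1 and Selenbp2 are close paralogs that a probe may not tell apart. For Ogn they were Naprt (0.0658), Phyhd1 (0.0904) and Sesn3 (0.0937), with Sesn3 at -1.15, 0.67 and 0.73. For Prelp they were Pdk1 (0.0750), Arhgdib (0.0849) and Ddit4 (0.0980), with Pdk1 at 0.11, 1.21 and 1.20. None of these genes was called by limma.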
